A study of Homo sapiens with 6 samples.

Results

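The genes described here are the 8 that build the ganglioside GD2 and its closest relatives, namely UGCG, B4GALT5, B4GALT6, ST3GAL5, ST8SIA1, ST8SIA5, B4GALNT1 and B3GALT4. They are 8 of the 20007 protein-coding genes placed on the same map. They were chosen by their known place in the pathway and not by any measured value, although earlier results of these data were known. The peaks assigned to each overlapped its body or the 10 kb beyond either end. Open chromatin was mapped by ATAC-seq, in which the Tn5 transposase cuts and tags accessible DNA, in cells of the human neuroblastoma line SK-N-AS regrown in culture from mouse xenografts. Naïve cells came from vehicle-treated tumors. R1 and R2 cells came from tumors that had relapsed for the second time and were taken during the third cycle of indisulam, a molecule that recruits the splicing factor RBM39 to the DCAF15 ubiquitin ligase for destruction. The cells of all 3 groups were cultured without further treatment, and each group has 2 libraries of 100000 cells. The methods describe several vehicle-treated and several resistant tumors as the source of cells, without saying which of them gave naïve, R1 or R2 cells. Whether the 2 libraries of each kind came from separate cultures is not given in the sources used here, so that p-values measure only the spread between these libraries, which may be technical.

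Gangliosides are sialic acid-bearing glycolipids of the outer cell surface. UGCG puts glucose on ceramide, B4GALT5 and B4GALT6 add galactose to give lactosylceramide, and ST3GAL5 adds the first sialic acid to give GM3. ST8SIA1, the GD3 synthase, adds the next sialic acid, B4GALNT1 turns GM3 into GM2 and GD3 into GD2, and B3GALT4 extends GM2 and GD2 to GM1 and GD1b. ST8SIA5 adds further sialic acids and leads to GT3 and the complex gangliosides. GD2 is abundant on most neuroblastomas and is the target of antibody therapy in this disease.

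The 6 lists of peaks differed widely in length and depth. The naïve lists held 154926 and 115694 peaks, the R1 lists 340558 and 292030, and the R2 lists 67558 and 73484. The background rate recovered from each list, which stands for its depth, was lowest in the first R2 library, and relative to it was 2.69 and 1.59 in the naïve libraries, 9.34 and 6.39 in the R1 libraries and 1.06 in the second R2 library. The lowest pileup of tags called as a peak was accordingly 9 and 7 tags in the naïve, 18 and 14 in the R1 and 6 tags in both R2 libraries. Depth and cell type cannot be told apart in these libraries. Peaks were therefore compared by rank within a library, and where a peak was missing the depth was given beside it. Of 9 adrenergic neuroblastoma markers, 6 had a peak at the start in all 6 libraries, as had 5 of 9 mesenchymal ones (66.7% and 55.6%, against 54.7% of all protein-coding genes). PTPRC, CD3E and ALB, which mark blood and liver cells, had none in any library, whereas INS, the insulin gene, had a start peak in all 6.

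The sequences under the peaks on which the results turn are shown here on the strand of the gene. The first is the summit of the peak nearest to the start of ST8SIA1, at chr12:22335569-22335769 of hg38, the second the summit of the only ST8SIA1 peak seen in every library, at chr12:22443434-22443634, and the third the summit in naïve and R2 cells of the intronic ST8SIA5 region that differed between R1 and naïve cells, at chr18:46712446-46712646. The R1 peaks covered this stretch but had their summits 973 to 1086 bp away, outside the bases shown. The last is the stretch just before the start of ST3GAL5, at chr2:85889038-85889240 on the minus strand (RefSeq, GRCh38.p14), less the bases annotated as untranslated exon. All 3 genes lie on the minus strand. Capitals mark matches to the GC box GGGCGG, the CCAAT box CCAAT or the cyclic AMP element TGACGTCA on either strand.
ST8SIA1 start peak: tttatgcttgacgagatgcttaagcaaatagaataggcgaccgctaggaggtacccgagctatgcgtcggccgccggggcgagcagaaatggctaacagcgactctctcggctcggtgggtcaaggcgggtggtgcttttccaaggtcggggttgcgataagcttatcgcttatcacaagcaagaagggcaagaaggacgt
ST8SIA1 upstream peak: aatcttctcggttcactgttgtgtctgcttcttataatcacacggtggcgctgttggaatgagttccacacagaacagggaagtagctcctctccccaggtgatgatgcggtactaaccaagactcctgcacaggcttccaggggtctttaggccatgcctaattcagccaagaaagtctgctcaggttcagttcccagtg
ST8SIA5 intronic peak: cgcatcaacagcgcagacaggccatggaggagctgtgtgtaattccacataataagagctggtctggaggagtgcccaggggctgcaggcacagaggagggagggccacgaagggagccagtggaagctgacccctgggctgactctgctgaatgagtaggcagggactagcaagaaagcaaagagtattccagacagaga
ST3GAL5 promoter: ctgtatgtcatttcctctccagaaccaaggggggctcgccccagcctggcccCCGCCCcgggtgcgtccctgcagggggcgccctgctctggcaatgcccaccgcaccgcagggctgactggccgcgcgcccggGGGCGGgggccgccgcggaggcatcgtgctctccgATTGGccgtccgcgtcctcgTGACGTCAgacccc

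The ST3GAL5 promoter was rich in G and C (74.4% of its bases) and held 2 GC boxes, 1 CCAAT box and the element TGACGTCA. Over the 250 bases before the start, these motifs occurred in 42.6%, 32.0% and 1.646% of 35116 RefSeq promoters. The 3 peak summits held 55.2%, 50.7% and 56.7% G and C and no match to these motifs, nor to the AP-1 motif TGANTCA, the E-box CACGTG or the TATA box TATAAA, which were searched as well. The GC box was present at 29.0% and the AP-1 motif at 7.32% of 16782 summit windows of the same length in the first R2 list. The median G and C content was 62.2% over these summit windows and 58% over the RefSeq promoters. Closer to the start of ST8SIA1, the 243 bases before it (again less untranslated exon) held 68.3% G and C, 28 CpG dinucleotides, 1 GC box and 1 CCAAT box. The start of B4GALT5 lay behind 250 bases with 75.6% G and C, 37 CpG dinucleotides and 3 GC boxes, and that of UGCG behind 250 bases with 78.4% G and C, 39 CpG dinucleotides and 3 GC boxes. RefSeq promoters were matched for UGCG, B4GALT5, ST3GAL5 and ST8SIA1, and those of B4GALT6, ST8SIA5, B4GALNT1 and B3GALT4 were not used here.

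Most of the pathway had open starts in every library, and the 2 genes that add sialic acid to sialic acid were the exceptions. A peak within 1000 bp of the start of the canonical transcript was present in all 6 libraries for 6 of the 8 genes, compared with 54.7% of protein-coding genes. No gene of the 8 lacked a start peak in every library, compared with 14.4% of protein-coding genes. ST8SIA1 had a start peak in 5 libraries and ST8SIA5 in 4. To set genes side by side, each gene was given the percentile, among all protein-coding genes of the same library, of its strongest start peak, with 0 the lowest and 100 the highest. Wherever they had a peak, ST8SIA1 stood below the 6 genes with a peak in all libraries, and ST8SIA5 below ST8SIA1, except that in the second naïve library ST8SIA1 had no peak and ST8SIA5 was the lowest. Among the 20000 strongest peaks of every list only the starts of UGCG, B4GALT6 and B3GALT4 were found, 37.5% of the 8 genes beside 33.5% of protein-coding genes. No test was made of this order.

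**Figure D1:**
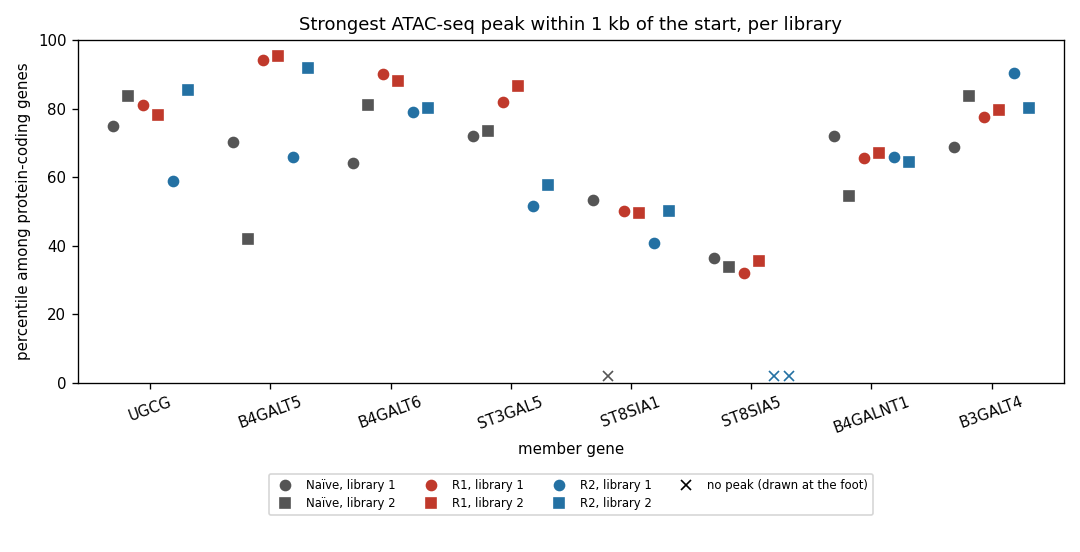
Percentile of the strongest peak within 1 kb of each gene's start among all protein-coding genes, for each library (vertical axis, 0 to 100), with naïve libraries in grey, R1 in red and R2 in blue, and crosses at the foot for libraries with no peak. ST8SIA1 stayed between 40.8 and 53.3 and ST8SIA5 between 32.0 and 36.5 where they had a peak, and ST3GAL5 was lower in both R2 libraries than in the other 4.

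UGCG, which commits ceramide to glycolipids, had exactly 1 peak in its whole window (chr9:111896814-111935369 and 10 kb either side) in every library, and it covered the start. Its percentile among genes was 74.9 and 83.8 in the naïve, 81.0 and 78.1 in the R1, and 59.0 and 85.6 in the R2 libraries. The R2 libraries held both the lowest and the highest value, so that the groups overlapped. In the R2 library with the low value, the peak rested on 13 tags at the summit, and in the other on 24.

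The 2 galactosyltransferases that make lactosylceramide both had a start peak in every library, and B4GALT5 had the widest range of the 6 such genes. Its percentile among genes was 70.4 and 41.9 in the naïve, 94.2 and 95.5 in the R1, and 65.9 and 92.0 in the R2 libraries. The second naïve library was far below the others, with 12 tags at the summit, 8.88 times its background, against 34.4 and 34.8 times in R1. To test such differences, each of the 24147 merged regions with a peak in all 6 lists was given a percentile rank within each library, from 0 to 100, and the ranks were compared with limma. On this scale the start region of B4GALT5 (chr20:49712265-49714267) averaged 39.7 ± 37.8 (SD, n = 2) in naïve and 95.2 ± 0.583 in R1 cells. The difference of 55.5 points (SE 17.5) did not pass the test across all regions, with an adjusted p of 0.0997 (limma, Benjamini-Hochberg). It passed when normal scores of the ranks were fitted (adjusted p 0.0264), and over all alternatives the adjusted p ranged from 0.0264 to 0.404. The median region within 5 Mb also stood higher in R1, at 42.7 against 23.4 in naïve cells, and in R2, at 42.8, and the part of this neighborhood in the difference was not tested. Of B4GALT6 (start region chr18:31684147-31686116, summit about 758 bp upstream of the start), the percentile rank among regions was 56.9 and 80.3 in naïve, 91.3 and 89.2 in R1 and 77.2 and 78.5 in R2 libraries. Both R1 values were above all others, and the difference from naïve cells, 21.7 points (SE 7.43), had an adjusted p of 0.1196 (limma), which passed only without the second naïve library (33.4 points, adjusted p 0.0456). Less the median within 5 Mb the difference was 3.71 points (adjusted p 0.867, the highest of all alternatives). Without the second naïve library the remaining one is assumed to vary like the other groups. How many of all regions ranked highest in both R1 libraries was not counted.

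ST3GAL5, the GM3 synthase, which makes the precursor of GD3 and GM2, was the gene whose start differed between the 2 resistant cell types. Its start region (chr2:85887444-85890291) had percentile ranks of 68.6 and 71.5 in the naïve, 84.2 and 88.0 in the R1, and 31.8 and 45.3 in the R2 libraries. The 3 groups did not overlap, with R1 highest and R2 lowest, and the share of all regions in this order was not counted. The region was 47.6 points higher in R1 than in R2 cells (SE 8.66, 95% interval 27.3 to 67.9), with an adjusted p of 0.0413 (limma). Against naïve cells, R1 was 16.1 points higher (SE 8.66, adjusted p 0.290) and the difference for R2 was -31.5 points (SE 8.66, unadjusted p 0.00777, adjusted p 0.116), and neither passed. The summit held 34 and 24 tags in naïve, 199 and 144 in R1 and only 11 and 13 in R2 libraries. With so few tags the R2 ranks are coarse: in the first R2 library 11 tags ranked at 31.8, and the 13 tags of the UGCG start at 47.5. In tags over background the summit stood at 14.9 and 17.8 in naïve, 25.1 and 26.5 in R1 and 12.9 and 14.5 in R2 libraries. The median gene with a start peak in all libraries stood at 14.9, 17.0, 20.8, 20.1, 19.99 and 20.03, in the same order of libraries. The median region within 5 Mb ranked at 57.7 in naïve, 61.3 in R1 and 68.6 in R2 cells, so that this neighborhood was not low in R2. The call between R1 and R2 was lost under several alternatives, among them when ranks were adjusted for GC content (40.7 points, adjusted p 0.0668), when regions were taken from the first R2 list (34.6 points, adjusted p 0.0552), and without any single library (40.8 to 54.3 points). The adjusted p was 0.0625 without the first and 0.0643 without the second naïve library, 0.411 and 0.404 without the first and second R1 library, and 0.0687 and 0.0649 without the first and second R2 library, and over all alternatives it ranged from 0.0133 to 0.411.

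ST8SIA1, the GD3 synthase and the step that opens the way to GD2, had few peaks along a very long gene (chr12:22063773-22437041). The peak assigned to its start had its summit 934 to 1040 bp upstream of the canonical start, inside an intron of a longer transcript. Its summit reached 23 tags in the first naïve library, 104 and 67 in the R1 libraries and 8 and 11 in the R2 libraries, and the second naïve library had no peak there. Over background these were 10.1, 13.1, 12.3, 9.41 and 12.2 times. Scaled from the first R1 library by the background rates, 17.7 tags would be reached in the second naïve library, where peaks were called from 7 tags. The percentile among genes was 53.3 in the naïve library with a peak, 50.1 and 49.5 in R1, and 40.8 and 50.1 in R2, so that it lay near the middle of all genes and the groups overlapped. Because 1 list lacked it, this region was not among those tested.

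A single further ST8SIA1 region had a peak in all 6 libraries. It lies at chr12:22443375-22443715, beyond the most upstream annotated end of the gene and about 108852 bp before the canonical start. Its percentile rank among regions was 16.6 and 12.9 in naïve, 30.3 and 28.3 in R1 and 53.7 and 29.5 in R2 libraries. All 4 resistant libraries were above both naïve ones, a pattern shared by 12.7% of all regions tested and by 2 of the 13 regions of the 8 genes (15.4%). The differences from naïve cells were 14.6 points for R1 (SE 9.94, adjusted p 0.402) and 26.9 points for R2 (SE 9.94, unadjusted p 0.0292, adjusted p 0.200), and neither passed the test with limma. The median region within 5 Mb ranked at 62.4 in naïve, 75.3 in R1 and 70.3 in R2 cells, and its part was not tested. Over the whole window of ST8SIA1, peaks covered 526 and 200 bp in naïve, 6157 and 5899 bp in R1 and 453 and 434 bp in R2 libraries, which placed it between the percentiles 18.3 and 25.6 of all protein-coding genes in the 6 libraries.

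ST8SIA5, which makes the more heavily sialylated gangliosides, had the weakest start of the 8 genes. It also held the only tested region that was lower in R1 than in naïve cells. Its start peak reached 15 and 9 tags in the naïve and 58 and 44 tags in the R1 libraries, 6.56, 6.66, 7.30 and 8.10 times background, and was absent from both R2 lists. Scaled from the second R1 library, 6.88 and 7.28 tags would be reached in R2 cells, whose lowest called pileup was 6 tags, so that the absence lies close to what their depth could show. The intronic region at chr18:46711244-46713165, 44531 bp into the gene, ranked at 51.3 and 68.8 in the naïve, 6.97 and 5.96 in the R1 and 40.2 and 29.5 in the R2 libraries. All 4 resistant libraries were below both naïve ones, and the R1 libraries were near the bottom of all regions. In R1 cells the region fell by 53.6 points (SE 9.82, 95% interval -76.6 to -30.6), with an adjusted p of 0.0274 (limma). In R2 cells the difference from naïve cells was -25.2 points (SE 9.82, adjusted p 0.219), and R1 and R2 differed by -28.4 points (SE 9.82, adjusted p 0.167), so that neither passed. The strongest peak of the region held 27 and 23 tags in naïve, 52 and 35 in R1 and 12 and 11 in R2 libraries, which is 11.8, 17.0, 6.55, 6.44, 14.1 and 12.2 times background. These are not the same base: in naïve and R2 cells the summits lay 44460 to 44555 bp into the gene, and in R1 cells at 45528 and 45546 bp. Each R1 library had a single wide peak over the region, which covered the 4 other summits. Its pileup at those summits is not known and, the summit being the highest point of a peak, was at most the value given. On this scale R2 lay within the range of the naïve libraries, and R1 lay below it. The median region within 5 Mb ranked higher in R1 than in naïve cells, at 57.5 against 46.4, and the difference was -64.8 points once this median was taken off. The call held under every alternative in which the region could be tested with all 6 libraries, and without either R2 library. It was lost without the first naïve library (-62.3 points, adjusted p 0.0585), without the second (-44.9 points, 0.0649), and without the first or second R1 library (-54.1 and -53.1 points, 0.276 and 0.256), and over all alternatives the adjusted p ranged from 0.00992 to 0.276.

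A neighboring ST8SIA5 region, 38435 bp into the gene, had peaks of 24 and 14 tags in the naïve libraries, 26 tags in the first R1 library and none in the other 3. These were 10.5, 10.4 and 3.27 times background. The R1 summit lay 38174 bp into the gene, and those of the naïve libraries at 38474 and 38435 bp. Scaled from the first naïve library, 83.3 and 57.0 tags would be reached in the R1 libraries, far above the 18 and 14 from which peaks were called there, and 8.92 and 9.43 tags in the R2 libraries. The whole window of ST8SIA5 was covered by peaks to 4.52% and 2.92% in naïve, 29.9% and 20.3% in R1 and 0.445% and 0.636% in R2 libraries. Among all protein-coding genes this placed it at the percentiles 61.7 and 60.9 in naïve, 68.5 and 66.0 in R1, and 35.2 and 39.3 in R2 libraries, the R2 libraries being below the other 4. Coverage ranks depend on depth through the weak peaks that a shallow list lacks, and the part of depth was not tested.

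**Figure D2:**
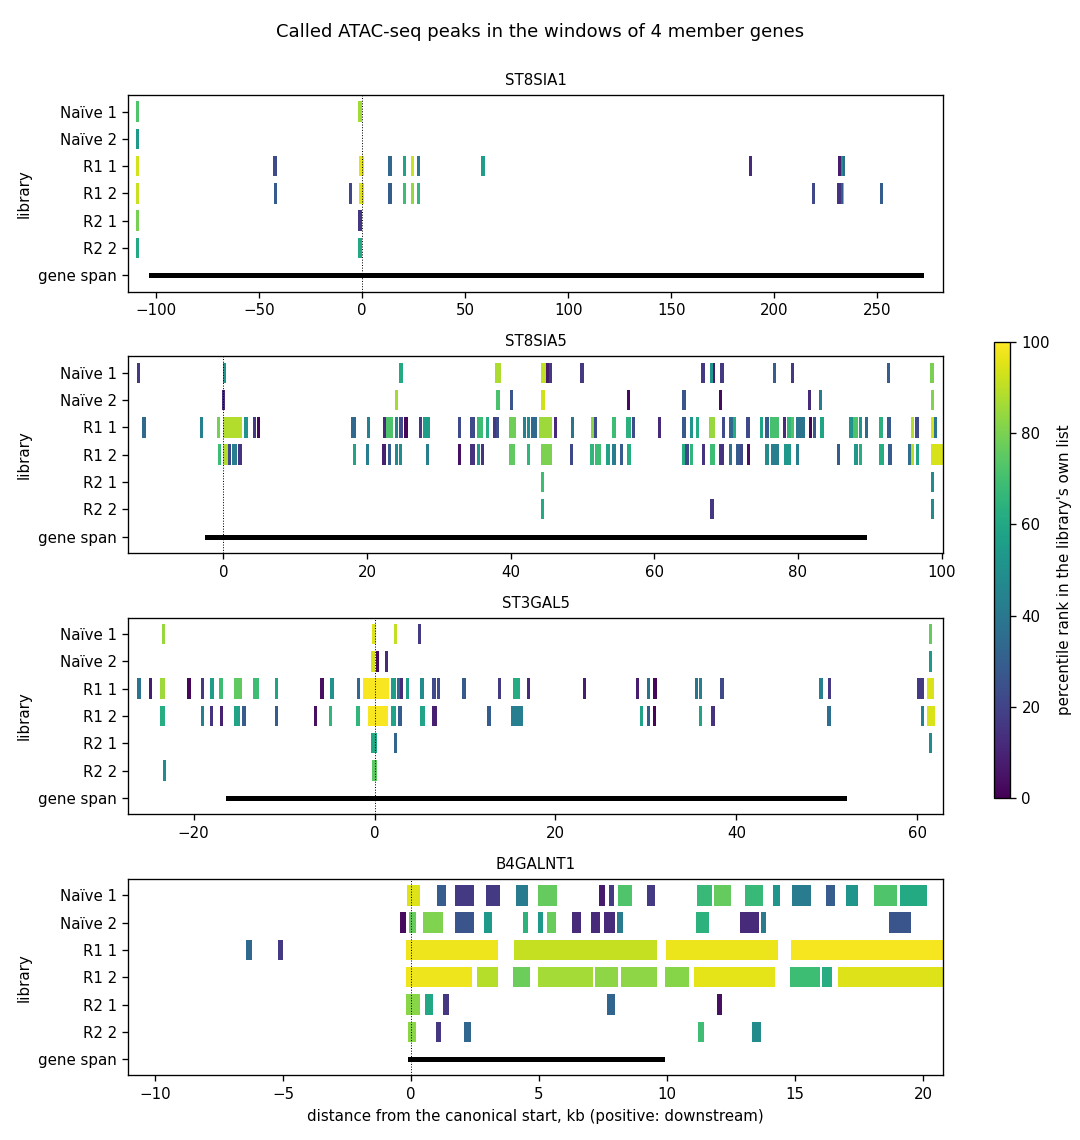
Called peaks along the windows of ST8SIA1, ST8SIA5, ST3GAL5 and B4GALNT1, with the distance from the canonical start in kb on the horizontal axis and 1 row per library, colored by percentile rank in that library's own list; the black bar is the annotated gene, and narrow peaks are widened to stay visible. Peaks of ST8SIA1 were few in every library, and those of ST8SIA5 were many in R1 (64 and 49) and few in R2 (2 and 3). Peaks, wide in R1, covered 91.9% and 85.1% of the body of B4GALNT1 in R1, 45.9% and 42.6% in naïve and 12.0% and 7.14% in R2 libraries.

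B4GALNT1, the GM2/GD2 synthase that completes GD2, lies in a short gene (chr12:57623409-57633239) that was widely open. Peaks covered 33.6% and 22.7% of its window in the naïve, 63.7% and 58.0% in the R1 and 5.09% and 4.49% in the R2 libraries. Among protein-coding genes these were the percentiles 88.2 and 88.5 in naïve, 87.6 and 88.2 in R1 and 81.0 and 77.5 in R2 libraries. The number of peaks was 19 and 16 in naïve, 6 and 11 in R1 and 5 and 5 in R2 libraries. The R1 peaks were wide: the widest to overlap the window spanned 10185 bp in the first R1 library and 1073 bp in the first naïve library. Both of these lay past the end of the gene and partly outside the window. Over the gene body the widest spanned 5587 bp in the first R1 library and 745 bp in the first naïve library. The start region (chr12:57629734-57633649) ranked at 68.6 and 38.8 in naïve, 67.8 and 68.5 in R1 and 59.1 and 57.3 in R2 libraries. In the second naïve library the strongest peak had its summit 663 bp downstream of the start, and in the other libraries 13 to 85 bp downstream. The naïve libraries held both the highest and the lowest value, and the differences of 14.5 points for R1 (SE 11.8, 95% interval -13.2 to 42.1, adjusted p 0.486) and 4.55 points for R2 (SE 11.8, 95% interval -23.1 to 32.2, adjusted p 0.865) did not pass the test with limma. The region just past the end of the gene, 11343 bp from the start (chr12:57618792-57623284), ranked at 20.6 and 19.4 in naïve, 60.2 and 53.1 in R1 and 1.29 and 37.9 in R2 libraries. The summits of the libraries in this region lay up to 1122 bp apart. It was 36.6 points higher in R1 than in naïve cells (SE 12.6, adjusted p 0.122), and this passed without the first or second R2 library (adjusted p 0.0400 and 0.0339). Over all alternatives the adjusted p ranged from 0.0339 to 0.492. A further region, 21782 bp from the start, overlaps the start of ARHGEF25 and ranked at 64.3 and 54.4 in naïve, 82.0 and 80.0 in R1 and 63.6 and 62.1 in R2 libraries, with a difference of 21.7 points for R1 (SE 7.58, adjusted p 0.125). The summits of this region lay outside the window in all libraries.

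The genes whose start regions ranked nearest to that of B4GALNT1 over the 6 libraries, by the root mean square difference of the ranks among 11318 genes, were ZBTB39 (2.96 points), ZNF766 (3.61) and TOP2B (4.25). ZBTB39 ranked at 68.6 and 38.8 in naïve, 70.9 and 75.0 in R1 and 59.1 and 57.3 in R2 libraries. Its naïve and R2 ranks were identical to those of B4GALNT1, because regions with the same tag count in a library share a rank. Some genes are always nearest, and shared regulation was not tested. ST8SIA1 was not compared in this way, since its start peak was missing from 1 list.

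B3GALT4, which extends GD2 to GD1b and so draws on the GD2 pool, had a strong start in every library. The start region (chr6:33276555-33281014) ranked at 64.3 and 83.5 in naïve, 80.1 and 81.6 in R1 and 89.3 and 78.5 in R2 libraries. The groups overlapped, and the differences of 6.97 points for R1 (SE 7.03, adjusted p 0.580) and 10.0 points for R2 (SE 7.03, adjusted p 0.467) did not pass the test with limma. Its window is dense with other genes. A region 5110 bp upstream overlaps the starts of VPS52 and RPS18. A region 22320 bp downstream overlaps that of RGL2, and its summits lay outside the window in all libraries. The latter, whose summits lay up to 1710 bp apart between libraries, ranked at 44.8 and 54.4 in naïve, 64.4 and 64.2 in R1 and 59.1 and 66.3 in R2 libraries, with all resistant libraries above both naïve ones and adjusted p of 0.378 and 0.483.

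Over the 8 windows, the lists held 65 and 46 peaks in the naïve, 175 and 138 in the R1 and 22 and 21 in the R2 libraries. Merged across libraries they gave 194 regions, of which 13 (6.70%) had a peak in all 6 libraries, compared with 6.47% of the 373067 regions of the genome. Peaks in R1 libraries alone made up 142 regions (73.2%, compared with 67.1% of all regions), and 63 of these were found in both R1 libraries (32.5%, compared with 30.0% of all regions). For 44 of the 63, the R1 pileup scaled to depth would have reached the lowest called pileup in the first naïve library, for 10 in the second, and for 2 in either R2 library. The other 19 would have been missed in all 4. No region had peaks in both naïve libraries alone or in both R2 libraries alone. Of the 63 regions, 25 lay along ST8SIA5, 15 along ST3GAL5 and 10 along B4GALT5.

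Of the 13 regions with a peak in every library, 1 was lower and none was higher in R1 than in naïve cells by the limma test, where 4.32% of all 24147 regions were lower and 3.32% were higher. In R2 against naïve cells none of the 13 passed, as did 0% of all regions in either direction. At an unadjusted p below 0.05, 3 of the 13 and 4803 of all regions passed in this contrast. In R1 against R2 cells, 1 of the 13 was higher in R1, compared with 0.464% of all regions, and none was lower, compared with 2.22%. The region called in each case was the ST8SIA5 intronic region for R1 against naïve cells and the ST3GAL5 start for R1 against R2. All 4 resistant libraries lay below both naïve ones in 1 of the 13 (7.69%), compared with 14.9% of all regions. The median shift of the 13 from naïve to R1 cells was 14.6 points, with 12 of 13 higher, while the median of all regions was 0.00414 with 50.05% higher. For R2 the median was 3.57 points with 7 of 13 higher, and that of all regions was -0.478. These medians are given as descriptions, since the 13 regions come from 8 neighborhoods and share libraries. The 13 include the B4GALNT1 region 21782 bp and the B3GALT4 region 22320 bp from the start. Both were higher in R1 than in naïve cells, and their summits lay outside the windows. With 2 libraries in each group, an exact permutation test of a single region could not go below a two-sided p of 0.333.

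**Figure D3:**
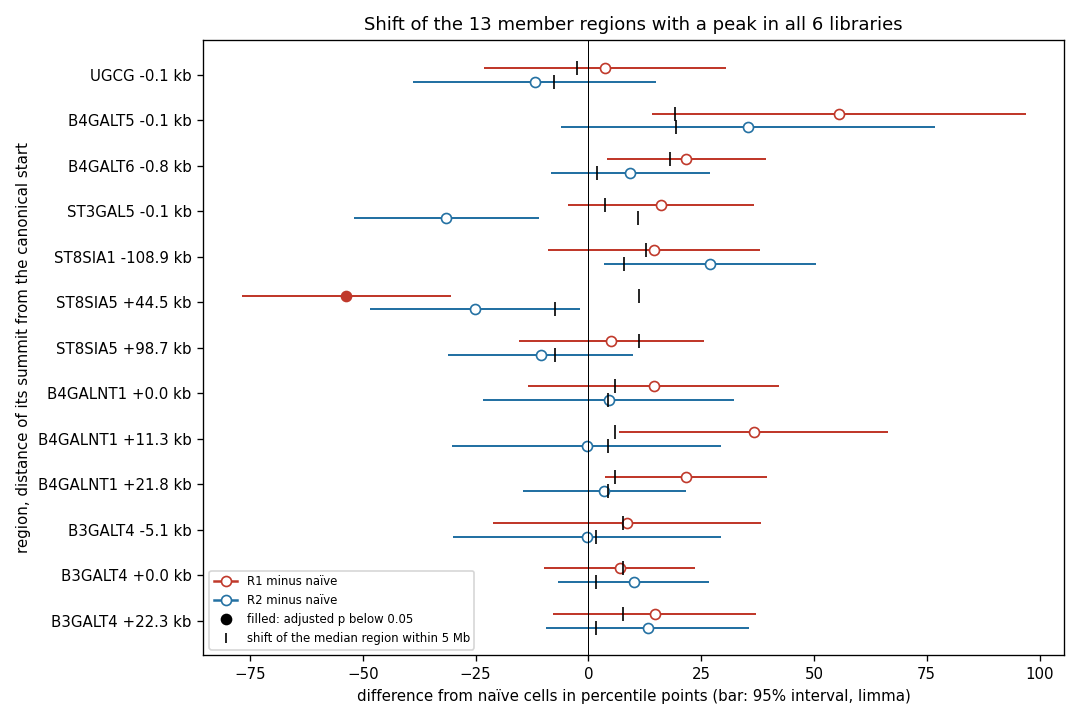
Difference in percentile rank from naïve cells for the 13 regions with a peak in all 6 libraries, in percentile points on the horizontal axis, with R1 in red, R2 in blue, 95% intervals as bars and the shift of the median region within 5 Mb as black ticks; each region is named by its gene and the distance of its summit from the start. The ST8SIA5 region 44.5 kb into the gene, at -53.6 points in R1, is the only filled point, and the ST3GAL5 start is the region with R1 at 16.1 and R2 at -31.5 points.

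The genes around the pathway mostly had open starts as well. Of 50 further genes of ceramide supply, sialic acid and sugar donors, other sialyltransferases, competing branches and breakdown, 39 had a start peak in all 6 libraries. These were 11 of 14 genes of ceramide supply, 8 of 9 of donor supply, 6 of 7 sialyltransferases, 12 of 15 of breakdown, and 2 of 5 of the competing glycolipid branches. The share was 78% over the 50 genes, compared with 54.7% of all protein-coding genes, and the branches stood below it at 40%. SPTLC3, a subunit of serine palmitoyltransferase, and CERS3, the ceramide synthase of very long acyl chains, had no start peak in any library. Of the 39 start regions tested, 2 (5.13%) were higher in R1 than in naïve cells and none was lower, beside 3.32% and 4.32% of all regions, and none passed in the other contrasts. CERS6, which makes ceramides of shorter acyl chains, ranked at 66.4 and 68.8 in naïve, 93.6 and 95.8 in R1 and 83.7 and 84.5 in R2 libraries, and was 27.0 points higher in R1 (SE 3.53, adjusted p 0.0201, limma). ST3GAL1, which caps the galactose of complex gangliosides and of O-glycans, ranked at 41.2 and 71.5 in naïve, 99.4 and 99.2 in R1 and 95.4 and 92.6 in R2 libraries, and was 42.9 points higher in R1 (SE 8.59, adjusted p 0.0329). Among the 5 mesenchymal markers with a tested start region, 1 passed: FN1, the fibronectin gene, was 50.2 points higher in R1 than in naïve cells (SE 11.4, adjusted p 0.0445). The differences of VIM, the vimentin gene, and FOSL1, an AP-1 subunit, were -34.9 and -32.0 points (adjusted p 0.0710 and 0.0936), and those of PRRX1 and FOSL2 were 1.57 and -3.41 points. No adrenergic marker passed in any contrast.

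**Figure D4:**
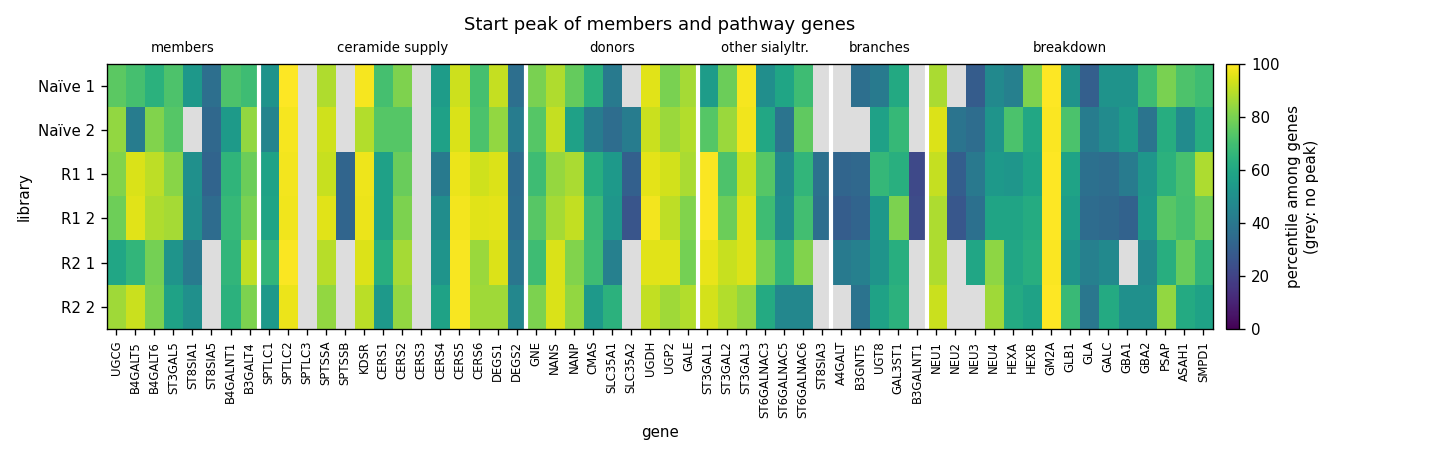
Percentile among protein-coding genes of the strongest start peak of the 8 genes and of 50 genes around the pathway, with genes along the horizontal axis in their lists, libraries as rows and grey for no peak. ST8SIA1 and ST8SIA5 are the dark columns among the 8, and SPTLC3 and CERS3 are grey in every library.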

How the data were processed

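ATAC-seq was performed on 2 libraries each of naïve, R1 and R2 cells. Per the methods, the authors aligned reads with BWA, marked duplicates with Picard, dropped mitochondrial reads, corrected the ends for the Tn5 cut (4 bp on the plus and 5 bp on the minus strand), and ran MACS2 on each library with a q cutoff of 0.01, extending tags by 200 bp with a 100 bp shift. The submitters' processing notes list BWA 0.7.12-r1039, Picard 1.65, SAMtools 1.3.1, MACS2 2.2.7.1 and bedtools 2.25.0. The methods name hg19, whereas the coordinates of all 24 chromosomes run within hg38, which was used with GENCODE release 44. The deposited values are a fold enrichment, a ratio over background as the authors' caller wrote it, and −log10 p-values and −log10 q-values.

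Because 1 background rate serves each list, the rate and the pileup at each summit were recovered from fold and p, and depths were expressed relative to the shallowest library. The scaled pileup of a missing peak is the pileup in the library where the region ranks highest times the ratio of background rates. A peak was assigned by 1 shared base. A merged region was assigned in the same way and ranked by its strongest peak in each library, also where that peak lay outside the window. Merged regions with a peak in all 6 lists were ranked by −log10 p within each library, and ranks were fitted with limma 3.58.1 (trend, 6 libraries, R 4.3.3), with Benjamini-Hochberg adjustment over all 24147 regions and a threshold of 0.05. The method and the overlap functions were tested on simulated data. Genes and lists were chosen with earlier results of these data known. Named regions were the start regions, every region in all lists, and others in the top 20000 or found in both libraries of a single cell type, which are given as counts. Pathway genes were named if called or without any start peak. Window coverage was examined, and the sequences and the ST8SIA5 region 38435 bp from the start were picked, after values had been seen. Alternatives covered ranking, region sets, thresholds, GC content, neighborhood, pairing and leaving out each library. The reads were not used here. Analyses used Python 3.11.15, NumPy 2.4.6 and pandas 2.3.3.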

Additional observations from a re-analysis of the deposited data

Results flagged for a closer look

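The start region of ST3GAL5 (85887444 to 85890291 on chromosome 2) was 47.6 percentile points higher in R1 than in R2 cells, and it is listed because the effects of the 2 resistant cell types against the same naïve cells differed by the test of the difference itself (limma, SE 8.66, adjusted p 0.0413). Both R1 libraries lay above both naïve ones and both R2 libraries below them, an order whose share over all regions was not counted. The 2 effects share the naïve libraries, and the R2 summits held only 11 and 13 tags. Groups of 2 libraries are too small to look for a library far from the others.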

How the results depend on the processing

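The number of the 8 genes with a start peak in all 6 libraries was 5 to 6 under other distances, annotated starts and thresholds, and 3 among the top 20000 of each list. It was 6 to 7 without single libraries, 7 when the second naïve library was left out, which lacked ST8SIA1. Peaks per library averaged 77.8, and 10.5 among the top 20000. For R1 against naïve cells, 2 regions were called with normal scores (the ST8SIA5 intron and the B4GALT5 start), 0 when regions had to share a fraction of 0.5, which left 1 region, and 0 to 2 without single libraries. For R1 against R2, 0 were called after GC adjustment, 0 with regions of the first R2 list, 0 with the shared fraction, and 0 without any single library, where no region of the genome was called without a naïve or R2 library. In R2 against naïve cells no alternative called a region of the 8 genes, while over all regions normal scores called 494 and regions of the first R2 list 1191. Where only 1 library of a group remained, it was assumed to vary like the others. With the library number as a replicate block, 0 regions were called for R1 against R2 (ST3GAL5 start, 47.6 points, adjusted p 0.0573), and the count for R1 against naïve cells stayed at 1. Deviations of same-numbered libraries correlated at 0.0309, -0.0223 and -0.00084, so that the libraries share only a number. Ranking by fold gave identical ranks, since p follows fold within a list. The cause of the lost calls was not tested, and alternatives were run for the 8 genes only.

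Of 537 shifts of the 13 regions under alternatives, 34 changed sign, none of them a called shift. After GC adjustment, the R1 shift was -0.266 points at the B3GALT4 start and -3.02 at UGCG, and the R2 shift was 0.714 at the region 5110 bp upstream of B3GALT4. Less the median within 5 Mb, the R1 shift was -0.694 at the B3GALT4 start and -6.11 at the region 98696 bp downstream of the ST8SIA5 start, and the R2 shift was -0.711 at the B4GALNT1 region 21782 bp from the start. With regions of the first R2 list, the R1 shift was -1.19 at UGCG and -4.15 at that downstream ST8SIA5 region, and the R2 shift was 11.7 at the upstream B3GALT4 region. Without single libraries, the R1 shift ranged from -4.87 to 21.9 points at the upstream B3GALT4 region, from -2.64 to 16.6 at the B3GALT4 start, from -1.85 to 9.27 at UGCG, from -0.431 to 29.3 at the B4GALNT1 start and from -1.84 to 12.0 at the downstream ST8SIA5 region. The R2 shift ranged from -13.6 to 13.2 at the upstream B3GALT4 region, from -30.4 to 6.60 at UGCG, from -1.38 to 8.52 and from -18.7 to 17.9 at the B4GALNT1 regions 21782 and 11343 bp from the start, from -10.3 to 19.4 at the B4GALNT1 start and from -2.43 to 21.0 at B4GALT6.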
